A study of Mus musculus with 20 samples.

Results

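The genes of lipid metabolism Acads, Acadvl, Etfa and Pnpla3 were followed in cultured mouse hepatoma cells whose glutamine supply was switched off and on. They were found by symbol in the platform annotation, which gave 1 probe for each; they are 4 of 13406 named genes and 17280 probes. The genes were picked because their mean log2 ratio over the time points stood away from the median probe, so these means are described below without a test. The cells were Hepa1-6, an established line derived from a mouse liver tumour. They grew in DMEM with 25 mM glucose, antibiotics and a serum replacement. Control flasks received medium with 4 mM glutamine at every exchange. Experimental flasks received medium without glutamine at the start, medium with 4 mM glutamine at 24 h, medium without it again at 48 h and medium with it at 72 h, and the culture ended at 96 h. On every array RNA of an experimental flask was labelled with Cy5 and RNA of a control flask with Cy3.

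There were 20 arrays for 11 numbered time points, 2 arrays for 9 of them and 1 each for time points 5 and 11. The labels do not say when a time point was sampled or which medium its flask then held, so no value below was assigned to a medium with or without glutamine. They also leave unsaid whether the second array of a time point came from another flask, so p-values of differences among time points may measure technical spread only. The p-values of a mean over time points and of a periodic term rest on the spread over time points. These belong to 1 series and were treated as independent. For the first array of time point 4 the label of the control channel names cells without glutamine. A positive log2 ratio likely means more RNA in the flasks with varied glutamine, since the labels list that RNA first. Base 2 is an assumption, and no dyes were swapped, so a constant preference of a probe for a dye cannot be told apart from a constant difference between the flasks. Each array gave values for 4269 to 8269 probes and was centred on its median, which lay between 0.05 and 0.435 as deposited. The second arrays of time points 6 and 10 were left out of a reduced set, and how far they differ from the others is not measured here. The first of every 20 spots was raised on the array of time point 5 (median 2.72) and on the earlier of the arrays of time point 6 (median 1.28). None of the 4 probes lies at such a position. A reduced set of 18 arrays leaves out those second arrays and spots. Of 14 hepatocyte markers with a probe, 8 gave a value on 10 or more arrays, among them Apoc3 and Fgb on 19, Hnf4a on 16 and Alb on 12, while Afp, Apoh and Fga gave none. Of 7 macrophage markers with a probe 6 gave none, and Aif1 gave a value on all 20. Ratios carry no expression level, so these counts say only where a spot was measurable.

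Fatty acids enter mitochondria as carnitine esters and are shortened there by beta-oxidation, whose first step is carried out by acyl-CoA dehydrogenases of different chain-length preference. Acadvl encodes the enzyme for very long chains, which sits at the inner membrane, and Acads the matrix enzyme for short chains. Both hand their electrons to the electron transfer flavoprotein, a dimer whose alpha subunit is encoded by Etfa, and from there the electrons reach the respiratory chain. Pnpla3 encodes a patatin-like protein of the lipid droplet, the store of triglyceride, which in liver is induced by feeding. Glutamine can feed the tricarboxylic acid cycle and, in many cultured cells, also supplies carbon for fatty acid synthesis.

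The regions upstream of the 4 genes are shown because 2 of the genes lay above and 2 below the median probe. All 4 symbols matched the RefSeq promoter table of GRCm38.p6, and the 250 bases before each gene start are printed 5′ to 3′. They lie at chr15:84167566-84167815 on the plus strand for Pnpla3, chr5:115119347-115119596 on the minus strand for Acads, chr11:70015429-70015678 on the minus strand for Acadvl and chr9:55512244-55512493 on the minus strand for Etfa. Capitals mark every match, on either strand, to AGGTCA (the half-site of nuclear receptors such as PPAR alpha), the DR1 repeat (that half-site repeated after 1 base), CACGTG (an E-box), CCAAT (bound by the factor NF-Y), GGGCGG (a GC box) or TGACGTCA (a cAMP response element).
Pnpla3: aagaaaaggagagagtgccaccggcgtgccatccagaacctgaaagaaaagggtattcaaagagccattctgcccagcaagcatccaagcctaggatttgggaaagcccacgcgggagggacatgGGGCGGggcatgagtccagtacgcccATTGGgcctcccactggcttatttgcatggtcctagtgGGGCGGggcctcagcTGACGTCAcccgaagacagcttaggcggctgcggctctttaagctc
Acads: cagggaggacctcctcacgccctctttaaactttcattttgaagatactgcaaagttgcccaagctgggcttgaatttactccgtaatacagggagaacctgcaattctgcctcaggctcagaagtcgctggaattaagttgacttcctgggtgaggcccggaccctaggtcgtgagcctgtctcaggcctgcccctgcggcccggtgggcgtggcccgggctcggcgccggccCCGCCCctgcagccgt
Acadvl: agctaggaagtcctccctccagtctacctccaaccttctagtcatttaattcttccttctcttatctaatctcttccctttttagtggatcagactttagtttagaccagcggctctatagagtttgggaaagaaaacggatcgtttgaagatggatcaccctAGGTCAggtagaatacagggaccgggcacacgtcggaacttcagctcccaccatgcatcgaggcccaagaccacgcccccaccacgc
Etfa: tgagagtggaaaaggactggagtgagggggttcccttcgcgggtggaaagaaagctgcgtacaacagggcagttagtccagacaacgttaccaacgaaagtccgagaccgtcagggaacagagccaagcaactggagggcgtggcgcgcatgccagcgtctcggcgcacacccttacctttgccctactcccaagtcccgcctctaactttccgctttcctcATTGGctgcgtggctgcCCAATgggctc
Only Acadvl held the half-site AGGTCA, at -87 from the gene start, and 14.02% of 32851 promoter windows hold one. None of the 4 held the DR1 repeat (0.03% of windows) or CACGTG (6.02%). Pnpla3 held TGACGTCA at -46 (1.55% of windows), 2 GC boxes and 1 CCAAT box. Etfa held 2 CCAAT boxes and Acads 1 GC box, against 33.85% of windows with CCAAT and 32.74% with GGGCGG. The GC box was in both higher genes and in neither of the lower ones. The motifs were chosen after these sequences had been seen, and a match of letters describes the window only.

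Pnpla3, the lipid droplet protein, was the highest of the 4 and the only one with a value on all 20 arrays. Its centred log2 ratio on the array pairs of time points 1 to 4 was 0.63 and 0.62, 0.37 and 0.27, 0.25 and 0.39, and 0.405 and 0.62. The single array of time point 5 gave 0.14, and the pairs of time points 6 to 8 gave 0.91 and 0.27, 0.72 and 0.68, and 0.26 and 0.69. The pairs of time points 9 and 10 gave 0.62 and 0.38, and 0.44 and 0.61, and the single array of time point 11 gave 0.05. All 20 values lay above 0, with the lowest at the singly measured time points 5 and 11 and the highest on the first array of time point 6. The mean over time points was 0.43 ± 0.20 (SD, n = 11), a linear ratio of 1.35. By this mean Pnpla3 was the 178th highest of 4752 genes with values at 9 or more time points. Paired arrays differed by a median of 0.17 and by up to 0.64, at time point 6.

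Acads, the short-chain dehydrogenase, gave values on 16 arrays. Its log2 ratio on the pairs of time points 1 to 3 was 0.32 and -0.04, 0.35 and 0.37, and 0.38 and 0.27. A single array measured it at time points 4 (0.435), 5 (0), 6 (0.21), 8 (0.17), 10 (0.48) and 11 (0.22). The pairs of time points 7 and 9 gave 0.09 and -0.24, and 0.23 and -0.09. Of the 16 values 12 lay above 0, 3 below and 1 at 0, and the negative ones were all on second arrays, of time points 1, 7 and 9. Where both arrays gave a value, the second was the higher at 1 of 5 time points, and the median difference in size was 0.32. The highest value came from the second array of time point 10, which the reduced set leaves out. The mean was 0.21 ± 0.18 (SD, n = 11), a linear ratio of 1.16, and 0.19 ± 0.16 (SD, n = 10) in the reduced set, where time point 10 has no value.

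Etfa, the alpha subunit of the flavoprotein that takes electrons from both dehydrogenases, gave values on 19 arrays. The log2 ratio on the pairs of time points 1 to 4 was -0.52 and -0.16, -0.2 and -0.21, -0.51 and -0.19, and -0.285 and -0.44. A single array measured it at time points 5 (-0.06), 6 (0.07) and 11 (-0.34). The pairs of time points 7 to 10 gave -0.17 and -0.37, 0.03 and -0.06, -0.56 and -0.58, and -0.38 and 0.11. Of the 19 values 16 lay below 0, and the 3 above it were at time points 6, 8 and 10. Time point 9 was the lowest, with both arrays within 0.02 of each other. The mean was -0.23 ± 0.19 (SD, n = 11), a linear ratio of 0.85.

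Acadvl, the very-long-chain dehydrogenase, was measured least often, on 13 arrays and at 9 time points. The log2 ratio on the pairs of time points 1, 2, 4 and 9 was -0.43 and 0.29, 0 and -0.4, -0.385 and -0.26, and -0.05 and 0.02. A single array measured it at time points 3 (-0.15), 5 (-0.62), 7 (-0.59), 10 (-0.58) and 11 (-0.22). Of the 13 values 10 lay below 0, 2 above and 1 at 0, and the 3 lowest came from time points represented by 1 array. The mean was -0.31 ± 0.23 (SD, n = 9), a linear ratio of 0.808. At time point 1 the arrays differed by 0.72, which is more than the range of 0.605 over all time-point means. The 7 arrays without a value for Acadvl gave a median of 4844 values in all, against 5789 on the 13 arrays with one, and the part of this in the mean was not tested.

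**Figure D1:**
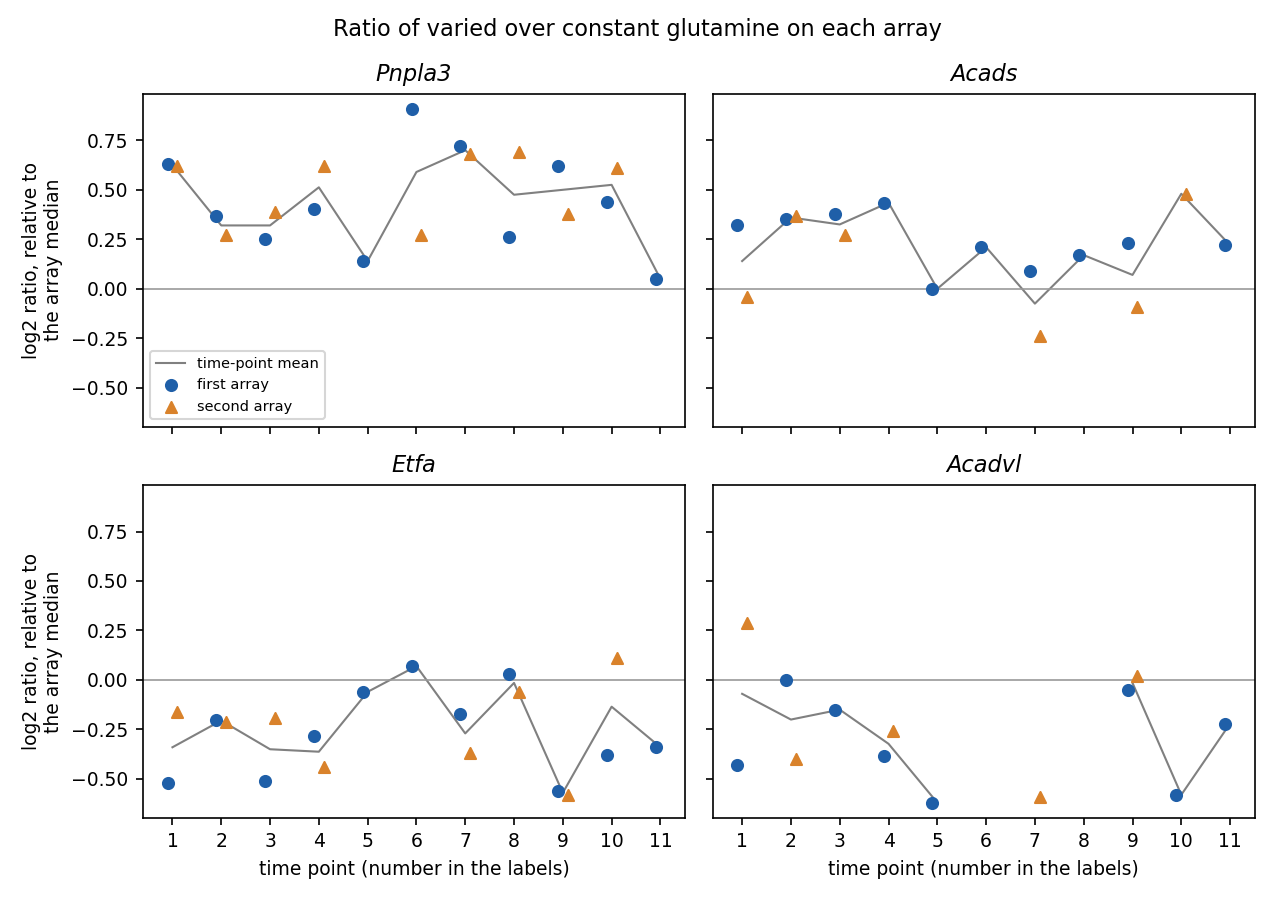
Centred log2 ratio (y axis, array median at 0) of Pnpla3, Acads, Etfa and Acadvl at the 11 numbered time points (x axis). Circles are first arrays, triangles second arrays, and the grey line joins time-point means where neighbouring ones exist. All 20 values of Pnpla3 lie above 0, 16 of 19 values of Etfa and 10 of 13 of Acadvl lie below it.

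By the limma test of the mean, 22.6% of 4752 genes were called at an adjusted p under 0.05, 13.6% higher and 9.05% lower. The 4 genes were chosen from this mean, so it is not tested for them. Pnpla3 was positive at 11 of 11 time points and Acadvl negative at 9 of 9, and 8.42% of the genes kept 1 sign at every time point measured. Acads was positive at 9 time points, at 0 at time point 5 and negative at time point 7, while Etfa was negative at 10 and positive at time point 6. The sign of the mean depended on the centring for Etfa, while the mean of Acadvl stayed negative but near 0 without it. As deposited, the log2 ratio of Etfa had a mean of 0.018 ± 0.19 (SD, n = 11) and was positive on 11 arrays and negative on 8. Acadvl had a mean of -0.049 ± 0.25 (SD, n = 9) as deposited, with 7 positive and 6 negative arrays. The deposited values of Acads and Pnpla3 were positive on every array that measured them, with means of 0.46 ± 0.21 and 0.70 ± 0.26 (SD, n = 11 each). Over all genes, the test without centring called 2849 higher and 46 lower, against 646 and 430 with it. Centring on each block of 540 probe numbers in place of the whole array kept the 4 signs but brought Acads to 0.13, Acadvl to -0.20 and Etfa to -0.10, and left Pnpla3 at 0.38.

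**Figure D2:**
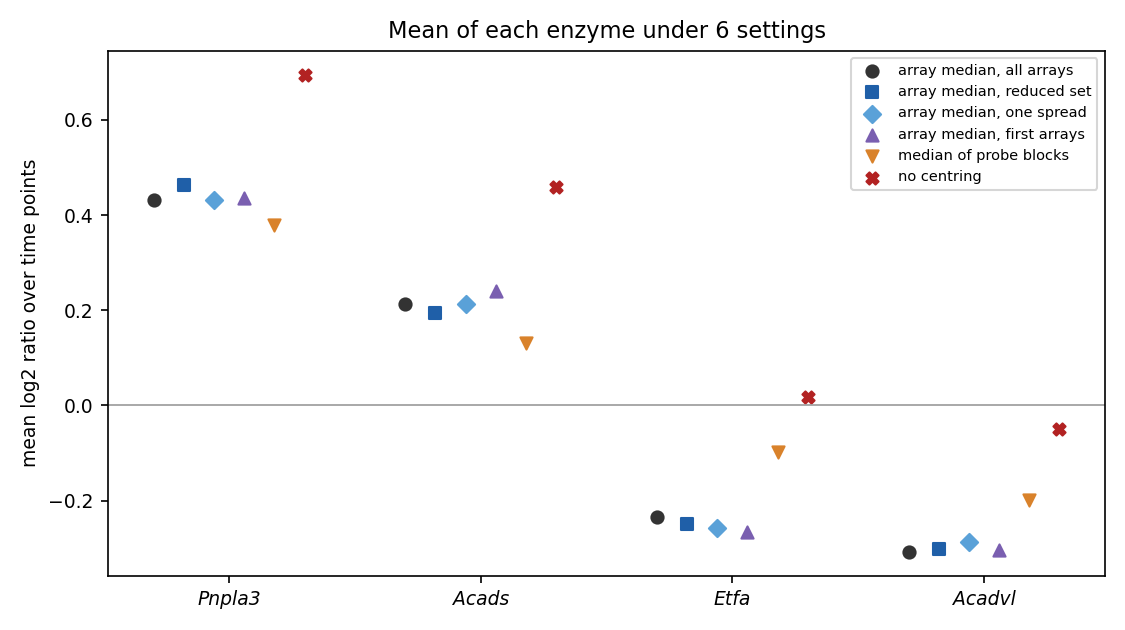
Mean log2 ratio over time points (y axis) of the 4 genes (x axis) under 6 settings, 1 symbol each. Without centring Pnpla3 and Acads stay above 0, at 0.70 and 0.46, and Etfa and Acadvl lie within 0.05 of 0; the other 5 settings keep 2 genes above and 2 below 0.

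On arrays that measured both genes of a pair, the difference between their log2 ratios does not depend on the centring of whole arrays. The log2 ratio of Acads, the short-chain enzyme, was above that of Acadvl, the very-long-chain enzyme, on 9 of 11 shared arrays and below it on 2, the second arrays of time points 1 and 9. The difference there ranged from -0.33 to 0.82 with a median of 0.44. Averaged by time point, Acads exceeded Acadvl at 9 of 9, by 0.52 ± 0.29 (SD, n = 9), but the largest of these gaps, 1.06 at time point 10, joins different arrays. Acads was above Etfa on all 16 shared arrays, by a median of 0.475. Pnpla3 was above Etfa on all 19 shared arrays and above Acadvl on all 13, with medians of -0.76 for Etfa minus Pnpla3 and -0.67 for Acadvl minus Pnpla3. Acadvl and Etfa had no constant order, with Acadvl higher on 8 of 13 shared arrays and a median difference of 0.12. These genes were chosen for their means, so the differences are given without a test.

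Pearson correlations of the time-point means, which share arrays, lay between -0.084 and 0.13 for 5 of the 6 pairs; in the reduced set Acads and Acadvl reached 0.39 (n = 8) and Etfa and Pnpla3 0.25 (n = 11). For Acadvl and Etfa the correlation was -0.78 (Spearman rho -0.72, n = 9), and it was -0.55 in the reduced set. Where the mean of Acadvl was lowest, at time points 5, 7 and 10, that of Etfa lay at -0.06, -0.27 and -0.135. At time point 9 Acadvl lay at -0.015 and Etfa at its lowest of -0.57. At time points 3, 7 and 10, however, 1 array measured Acadvl and 2 measured Etfa. On the array with Acadvl, Etfa lay there at -0.51, -0.37 and -0.38. The correlation thus joins partly different arrays, and none was computed over shared arrays alone.

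Whether a gene differed among time points was a test independent of its mean. With limma, 8.03% of the 2953 genes with values on 16 or more arrays and at every time point were called at an adjusted p under 0.05. None of the 3 genes described here that could be tested was among them. The adjusted p was 0.499 for Etfa, 0.556 for Pnpla3 and 0.616 for Acads. Their spread between arrays of a time point was 0.185 (Etfa), 0.205 (Pnpla3) and 0.188 (Acads) as a residual SD, against a median of 0.228 over all genes tested. Acadvl lacks time points 6 and 8, and in a test over the time points each gene has, its limma-moderated adjusted p was 0.691, where 6.71% of 4561 genes were called. In the reduced set 32.8% of 2557 genes were called, and there Pnpla3 had an adjusted p of 0.0873 (unadjusted 0.0352) and Etfa of 0.193 by limma. Acads and Acadvl could be tested on those arrays only with gaps allowed, and their adjusted p was 0.562 and 0.247. A p that misses the threshold does not show that a gene was constant, and the ranges of the time-point means were 0.555 for Acads, 0.605 for Acadvl, 0.64 for Etfa and 0.65 for Pnpla3.

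The 5 contrasts between groups of neighbouring time points asked where along the series a shift occurred, and limma called none of Acads, Etfa and Pnpla3 in any of them. Acadvl could be fitted only with gaps allowed and in 2 of them, and was not called there. Time points 3 and 4 differed from 1 and 2 by 0.13 ± 0.16 (SE) for Acads, -0.084 ± 0.14 for Etfa and -0.056 ± 0.15 for Pnpla3, and no gene at all was called (0% of 2953, with 141 genes at an unadjusted p under 0.05). The largest shift among the 4 genes was that of Acads at time point 7 against 3 and 4, at -0.46 ± 0.19 (SE), with an unadjusted limma p of 0.0412 and an adjusted p of 0.298. In that contrast 4.17% of genes were called. Pnpla3 moved the other way there, at 0.28 ± 0.18 (adjusted p 0.523 by limma), and Etfa lay at 0.086 ± 0.17 (0.905). With gaps allowed Acadvl lay at -0.35 ± 0.31 in the same contrast (adjusted p 0.710). From time point 7 to 8 and 9 the differences were 0.20 ± 0.19 for Acads, -0.023 ± 0.17 for Etfa and -0.21 ± 0.18 for Pnpla3, with 2.68% of genes called. Time points 8 and 9 against 3 and 4 gave -0.26 ± 0.17, 0.064 ± 0.14 and 0.071 ± 0.15 for the same genes, with 0% called (215 genes at an unadjusted p under 0.05). Time points 10 and 11 against 8 and 9 gave 0.23 ± 0.19, 0.055 ± 0.15 and -0.20 ± 0.16, with 0.305% called. Without centring, shifts that turned sign were those of Etfa (0.013) and Pnpla3 (0.040) from 1 and 2 to 3 and 4, and of Etfa (-0.13) and Acads (-0.0025) in the last contrast, where Pnpla3 lay at -0.39 (limma adjusted p 0.129). The last shift of Etfa turned in the reduced set too (-0.068). With blocks centred, Pnpla3 turned in the first contrast (0.0037) and in that of 8 and 9 against 3 and 4 (-0.0088). On all arrays centred on their medians, the lowest limma adjusted p of Acads, Etfa and Pnpla3 in the last 3 contrasts was 0.666. With second arrays as a replicate block it was 0.550 (limma, Acads in the last contrast).

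A periodic component with a period of 5 steps, about the length of the 48 h glutamine cycle if 11 samples were spread evenly over 96 h, was called by limma for no gene (0% of 4752, with 179 at an unadjusted p under 0.05). The fitted amplitudes were 0.046 for Pnpla3, 0.053 for Acads, 0.080 for Etfa and 0.10 for Acadvl, with adjusted p between 0.932 and 0.977. These are smaller than the SDs over time points given above for the same genes, though an amplitude and an SD are different measures.

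The list of mitochondrial fatty acid oxidation holds 24 genes, of which 21 are not described above; 17 of these gave a value on any array and 5 were measured at enough time points. Of these 5, 1 was lower by limma and 0 higher, where 9.05% of all genes were lower, and their median was -0.15, against 0.024 over all genes tested. Without centring 2 of the 5 were called higher and 0 lower, and the means of Decr1 (0.073), Etfb (0.10) and Cpt2 (0.14) were positive, so the direction of this list depends on the centring. The lower gene was Crat, carnitine acetyltransferase, at -0.37 ± 0.26 (SD, n = 10, limma adjusted p 0.00747). It ranged from -0.79 to -0.06 and was negative at each of 10 time points, though without centring its mean was -0.14 and it was not called. Decr1, a reductase needed for unsaturated fatty acids, was at -0.19 ± 0.22 (SD, n = 11) and below 0 at every time point when centred, with a limma adjusted p of 0.0568, and 0.0256 in the reduced set. Etfb, the partner of Etfa in the flavoprotein, lay at -0.15 ± 0.23 (SD, n = 11, limma adjusted p 0.134), negative at 6 time points and positive at 5. Cpt2, which returns acyl groups from carnitine to coenzyme A, lay at -0.13 ± 0.16 (n = 10) and the carnitine carrier Slc25a20 at 0.12 ± 0.19 (n = 11), neither past the limma test. Other central genes were rarely measurable: Acadm gave a value on 1 array, Hadhb and Etfdh on 2, Cpt1a on 5 and Acadl on 7.

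The flavoprotein also serves dehydrogenases outside fatty acid oxidation. Of 3 such genes measured, Sardh, which oxidises sarcosine, was lower at -0.36 ± 0.30 (SD, n = 10, limma adjusted p 0.0142), with 9 of 10 time points below 0. Without centring it lay at -0.093 and was not called. Ivd, of leucine breakdown, lay at -0.017 ± 0.23 (n = 9) and Acadsb at -0.00025 ± 0.32 (n = 10). In the peroxisome, where very long chains are shortened, 0 of 4 measured genes were called by limma. The largest means there were -0.18 ± 0.26 (n = 11) for the thiolase Acaa1a and -0.16 ± 0.29 (n = 10) for the thioesterase Acot8, and both turned positive without centring.

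Lipid droplets and lipolysis, the pathway of Pnpla3, had 7 other measured genes of 22 with a probe, and 3 of these were higher and 0 lower by limma, where 13.6% of all genes were higher. Their median was 0.14, against 0.024 over all genes tested. Cidec, a droplet protein that promotes fusion of droplets, was at 0.44 ± 0.19 (SD, n = 10, limma adjusted p 0.000920), with all 10 time points between 0.19 and 0.84. Abhd5, the co-activator of the triglyceride lipase Pnpla2, was at 0.31 ± 0.18 (n = 11, adjusted p 0.00307) and positive at 10 of 11 time points. Both kept their call under every alternative run for them. Pnpla5, a relative of Pnpla3, was at 0.16 ± 0.11 (n = 10, limma adjusted p 0.0290). It was not called in the reduced set (0.10, adjusted p 0.189), on first arrays only, with blocks centred, or without any one of time points 2, 3, 7, 9, 10 and 11. The lipase Pnpla2 itself lay at 0.14 ± 0.20 (n = 10), Hilpda at 0.083 ± 0.19 (n = 11), Faf2 at 0.040 ± 0.23 (n = 10) and Plin5 at -0.18 ± 0.25 (n = 10), none past the limma test. Of the 7, the reduced set called 2 higher, block centring 2 higher and 1 lower, and values without centring 6 higher.

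**Figure D3:**
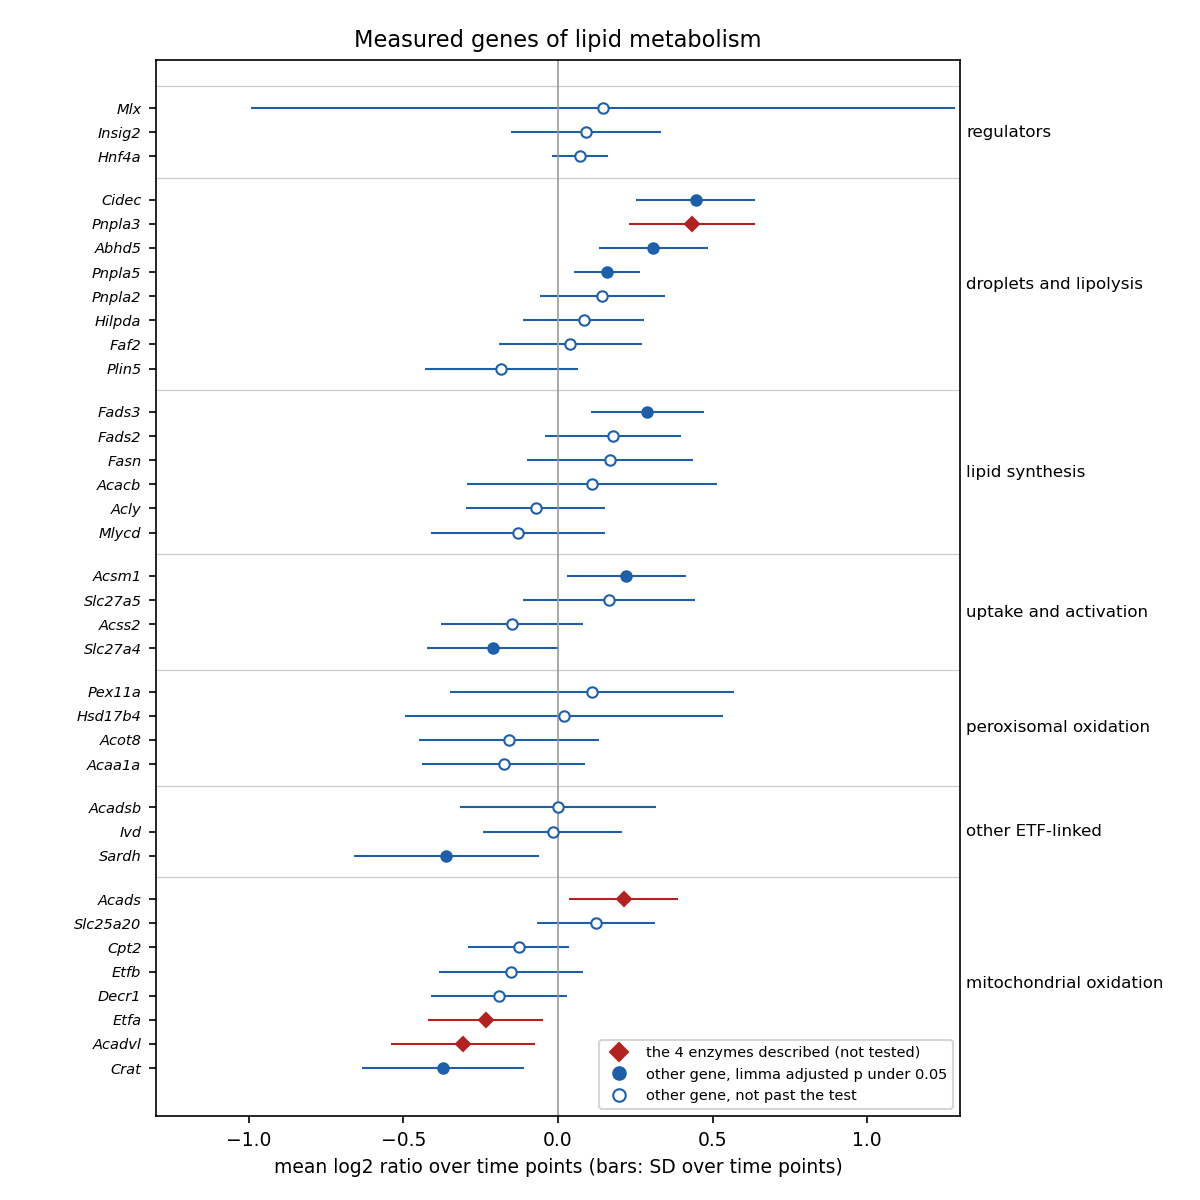
Mean log2 ratio over time points (x axis, array median at 0) of the measured genes of lipid metabolism, grouped by list; bars are SDs over time points. Diamonds are the 4 genes described, filled circles other genes past the limma test and open circles those that were not; Cidec at 0.44 and Abhd5 at 0.31 lie beside Pnpla3 at 0.43, and Crat at -0.37 beside Acadvl at -0.31.

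In fatty acid and triglyceride synthesis 1 of 6 measured genes was higher and 0 lower by limma, close to the 13.6% of all genes that were higher. Without centring 4 of the 6 were higher, and with blocks centred 1 was higher and 1 lower. It was the desaturase family member Fads3, at 0.29 ± 0.18 (SD, n = 11, adjusted p 0.00463) and positive at 10 of 11 time points. The desaturase Fads2 lay at 0.18 ± 0.22 (n = 11), with a limma adjusted p of 0.0735, and 0.0128 in the reduced set. Fasn, fatty acid synthase, lay at 0.17 ± 0.27 (n = 11, limma adjusted p 0.142) and Acly, which makes cytosolic acetyl-CoA from citrate, at -0.073 ± 0.22 (n = 11, 0.460). Among 4 measured genes of uptake and activation, the acyl-CoA synthetase Acsm1 was higher at 0.22 ± 0.19 (SD, n = 11, limma adjusted p 0.0203) and the transporter Slc27a4 lower at -0.21 ± 0.21 (n = 10, 0.0454). Acsm1 was not called with blocks centred (0.093) or without time point 4 (0.20, adjusted p 0.0506). Slc27a4 kept its call only without time points 3, 6 or 9 when single time points were left out, and had a mean of 0.060 without centring. Of the regulators of lipid genes, 3 were measured and none was called, with Mlx at 0.15 ± 1.14 (SD, n = 9), reaching 2.93, and Insig2 at 0.091 ± 0.24 (n = 11). Without time point 5, whose array had raised spots, the mean of Mlx was -0.20 ± 0.49 (SD, n = 8). Mlx had too few time points to be tested in the reduced set, and the part of raised spots in its values was not tested. Ppara gave a value on 2 arrays, and Srebf1, Ppargc1a, Plin2, Cd36 and Fabp1 on none. No other gene of these lipid lists was called by the limma test among time points or in the 5 contrasts, though at most 4 genes of a list could be tested there.

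Markers of liver cells were on both sides of the median too. Of 7 hepatocyte markers measured, Alb was lower at -0.56 ± 0.21 (SD, n = 9) and Krt8 at -0.25 ± 0.19 (n = 10), and Apoc3 was higher at 0.24 ± 0.17 (n = 11), all past the limma test, though Krt8 had a mean of 0.022 without centring and was not called with blocks centred (-0.069). Among markers of other cells Col1a2, 1 of 6 fibroblast markers, was at 0.19 ± 0.10 (n = 11) and Aif1 at 0.69 ± 0.34 (n = 11). Pdgfrb, also a fibroblast marker, lay the other way, at -0.43 ± 0.52 (SD, n = 10, limma adjusted p 0.0529). In the reduced set Pdgfrb was called lower, at -0.29 ± 0.35 (SD, n = 9, limma adjusted p 0.0379). Of the fibroblast markers 1 was called higher and 0 lower on all arrays, and 1 higher and 1 lower in the reduced set. Fgb, a hepatocyte marker, fell from time point 7 to 8 and 9, while Acta2 and Vim, fibroblast markers, were lower at time point 7 than at 3 and 4, and Acta2 then rose. Dcn, another fibroblast marker, differed among time points like these 3 (limma adjusted p 0.0282). In the reduced set, which leaves out the raised spots of time points 5 and 6, Dcn kept 9 of 11 time points. Vim kept too few there to be tested. The part of raised spots in the calls of Dcn and Vim among time points was not tested. Nor was the part of these markers in the values of the 4 genes.

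The genes whose profiles over time were most like each of the 4 were taken among 3030 or 3031 genes with a value at all 11 time points. For Pnpla3 they were Jakmip2 (r = 0.93, and 0.81 in the reduced set), Kbtbd12 (0.88 and 0.92) and Ccnd1 (0.88 and 0.71). For Acads they were Rybp (0.85 and 0.72), Gsta2 (0.84 and 0.77) and Mx1 (0.84 and 0.55). Etfa was most like Pacc1 (0.87 and 0.88), Copz2 (0.83 and 0.75) and Zfp62 (0.75 and 0.80), and Acadvl, over its 9 time points, like Trappc6a (0.91 and 0.87), Odam (0.88 and 0.86) and Gpank1 (0.88 and 0.81). These are the highest of many correlations over few points that share arrays, so they describe the profiles only. No gene of the lipid lists was among them.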

How the data were processed

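Expression was measured on 2-colour spotted arrays. The deposited values, 1 column per array, were taken as log2 ratios; the scale, the direction and the processing before deposit are not given in the sources used here, and spot intensities were not used. Each array was centred on its median, probes of 1 symbol were averaged (each of the 4 genes has 1 probe), and arrays of a time point were averaged for the mean over time points, which needed values at 9 or more time points. Differences among time points, contrasts and the periodic term were fitted with limma 3.58.1 in R 4.3.3 over all genes, with Benjamini-Hochberg adjustment and a threshold of 0.05. Scripts were tested on simulated data.

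The 4 genes, the gene lists and the tests were chosen with earlier results of these data known. From each list the text names the genes past the test of the mean, at most 6, or else the 2 largest means. It also names genes past the other tests and the 3 genes most like each member. Other list genes were named for their known roles, and Pdgfrb for its call in the reduced set, after their values were seen. Settings with gaps allowed, without time points 5, 6 and 10, and all alternatives of single list genes were added after seeing the data. The number of arrays limits the precision.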

Additional observations from a re-analysis of the deposited data

How the results depend on the processing

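The means of the 4 genes kept their sign and moved by less than 1 SD under block centring, scaling to 1 spread, the reduced set, first arrays only and without time point 4. Without single time points they ranged from 0.19 to 0.24 (Acads), -0.34 to -0.27 (Acadvl), -0.26 to -0.20 (Etfa) and 0.41 to 0.47 (Pnpla3). Without centring they were 0.46, -0.049, 0.018 and 0.70, and 2895 genes were called for the mean in place of 1076. The count was 221 among genes with values on all 20 arrays, where fewer genes were tested, and ranged from 806 (without time point 4) to 1326 without single time points.

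Genes called among time points numbered 237 of 2953 tested, but 839 of 2557 in the reduced set and 1268 of 4221 there with gaps allowed. They were 593 of 3676 without time points 5, 6 and 10, and 60 of 596 among genes on all arrays. Without single arrays they ranged from 118 (first of time point 6, where only 976 genes were tested) to 1598 of 2892 (first of time point 10). They numbered 834 without the second of time point 10, and 136 to 156 without either array of time points 2, 4 and 7 or the first of 9. In the contrasts, in the order given, the reduced set called 6, 332, 247, 74 and 76 genes, against 0, 123, 79, 0 and 9. The last gave 49 without centring, 16 with gaps allowed and 5 to 646 without single arrays, the highest without the first array of time point 10, with 35 without the second and the lowest without the second of 8 or of 9. Time point 7 against 3 and 4 gave 38 to 93, lowest without either array of time point 7 and moved by over 1.5 times also by the first of 3 and of 4, and 8 and 9 against 7 gave 29 to 59, moved likewise by either array of 7 and 9 and the second of 8; the other 2 contrasts gave 0. The cause of these shifts was not tested. Acads, Etfa and Pnpla3 were not called in any of these fits that tested them. Nor was Acadvl in those with gaps allowed, the only ones that tested it. Over single arrays left out, the lowest limma adjusted p of these genes was 0.111 (Acads, time point 7 against 3 and 4). For Acads in that contrast the limma adjusted p was 0.0887 without time points 5, 6 and 10. It was 0.0984 (limma-moderated) in the reduced set with gaps allowed.

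Whether arrays marked r deviate alike was checked across 36 pairs of time points, where the correlation of second minus first array had a median of 0.0042 (from -0.43 to 0.33, with 9 over 0.1). The median cannot decide whether some of these arrays share a deviation, since single correlations lay far from it on both sides. With the mark r as a replicate block 176 genes were called among time points and 0, 103, 67, 0 and 6 in the contrasts. Genes of the lists named by rule that changed sign were Acaa1a (0.076 without centring, 0.020 with blocks centred), Acot8 (0.12), Slc27a4 (0.060) and Krt8 (0.022) without centring, and Mlx, which ranged from -0.20 (without time point 5) to 0.25 over single time points left out. Without centring Decr1 (0.073), Etfb (0.10), Cpt2 (0.14), Plin5 (0.045), Acly (0.18), Ivd (0.24) and Acadsb (0.23) turned positive too. A filter on dim spots was not possible with ratios alone. The periodic term called 0 genes by limma under its 4 alternatives, with 349 (6 steps), 59 (4 steps), 437 (no centring) and 261 (reduced set) at an unadjusted p under 0.05.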
